A study of Mus musculus with 67 samples.

Results

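Transcripts of 10 cyclins and cell cycle kinases or phosphatases were examined in 67 single-cell libraries from mouse preimplantation embryos, at 5 stages (2-cell, 4-cell, 8-cell, morula, blastocyst), with and without exposure to high-intensity light. The 10 genes, Ccnd1, Ccnd3, Ccne1, Ccne2, Ccna2, Ccnb1, Ccnb2, Cdk2, Cdk1 and Cdc25a, were taken by symbol from a table of 26414 genes, and all 10 were present. Embryos were C57BL/6, fertilised in vitro from eggs of 6-week-old females and sperm of 10-week-old males. In the light group, embryos were lit at the 2-cell stage with 5000 lx for 6 h and then cultured in the dark, while control embryos were kept in the dark throughout. Every later stage in the light group is therefore a stage reached by embryos lit earlier. In that order of stages, control libraries numbered 7, 6, 4, 13 and 3, and light libraries numbered 6, 8, 8, 6 and 6. Each library was made from 1 cell picked by hand from a dissociated embryo. The labels do not tell which cells shared an embryo, a litter or a collection time, so p-values measure the spread between these libraries.

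The 67 libraries held between 836011 and 8551674 reads in genes (median, 4632053), and 54.0% to 89.3% of those reads lay in Gm42418 and CT010467.1, which both carry ribosomal RNA sequence. The ratio of the reads of Gm42418 to those of CT010467.1 ran from 1.58 to 1.77 in light 2-cell libraries against 2.34 to 4.03 in control ones, and it was lower in every light library than in every control library at the 8-cell and morula stages as well. No batch is named in the labels, and light and whatever set this ratio cannot be told apart. In 17 of the 67 libraries, the profile over genes correlated better with the other light condition of its stage than with its own. All of these were control libraries: 2-cell library 17, 4-cell libraries 2, 3, 4 and 6, and 12 of the 13 morula libraries. For control 4-cell library 3, the median r was 0.887 with light and 0.849 with control. Trophectoderm markers, summed over 10 genes, ran from 492 to 7343 in blastocyst libraries and from 46.8 to 339 up to the 8-cell stage. Markers of cumulus cells and sperm summed to at most 63.1 and 53.6 in any library.

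Cyclins are the regulatory subunits of cyclin-dependent kinases, and the pairs they form drive the steps of the cell cycle in order. D cyclins pair with Cdk4 and Cdk6 and respond to growth signals. E cyclins pair with Cdk2 at the entry into DNA synthesis, cyclin A2 pairs with Cdk2 and then Cdk1, and B cyclins pair with Cdk1 at the entry into mitosis. Cdc25a is the phosphatase that removes inhibitory phosphates from these kinases. The cleaving mouse embryo divides without growing, begins with cyclin transcripts stored in the egg, and replaces them with its own transcripts around the 2-cell stage. In the GENCODE annotation, Ccnd1 and Ccne1 lie on chromosome 7, Ccnd3 on 17, Ccne2 on 4, Ccna2 on 3, Ccnb1 on 13, Ccnb2 and Cdc25a on 9, and Cdk1 and Cdk2 on 10. Ccnd1, Ccnd3, Ccne2, Ccna2 and Cdk2 overlap a gene on the opposite strand (LTO1, Bysl, Ints8, Exosc9 and Pmel). Reads in shared bases cannot be assigned to either gene with certainty, and the strand setting of the counting is not stated.

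Promoter sequence (250 bases before to 50 after the start, RefSeq, GRCm38.p6) was found for 7 of the 10 genes. Those of the mitotic genes Ccnb1, Ccnb2 and Cdk1 and of Ccne1 are printed because the light comparisons turn on them. Capitals mark the letters CCAAT of the box of that name, the letters TTTGAA of the cell cycle homology region (CHR), and the letters TTTCGCGC, TTTGGCGC or TTTCCCGC of E2F sites, each searched on both strands.
Ccnb1, chr13:100786437-100786736, minus strand: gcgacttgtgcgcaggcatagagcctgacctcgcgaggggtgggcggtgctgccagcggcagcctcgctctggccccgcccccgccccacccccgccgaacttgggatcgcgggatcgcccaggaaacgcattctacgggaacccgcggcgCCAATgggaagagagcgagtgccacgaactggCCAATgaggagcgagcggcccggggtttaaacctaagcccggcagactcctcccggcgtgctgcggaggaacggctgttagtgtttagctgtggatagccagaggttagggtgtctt
Ccnb2, chr9:70421505-70421804, minus strand: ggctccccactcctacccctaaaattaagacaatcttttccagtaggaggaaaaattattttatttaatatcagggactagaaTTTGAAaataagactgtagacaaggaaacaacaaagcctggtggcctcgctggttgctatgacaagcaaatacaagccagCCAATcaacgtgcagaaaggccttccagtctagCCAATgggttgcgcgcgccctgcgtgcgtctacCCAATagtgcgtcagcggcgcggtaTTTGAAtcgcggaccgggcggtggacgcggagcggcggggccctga
Cdk1, chr10:69352863-69353162, minus strand: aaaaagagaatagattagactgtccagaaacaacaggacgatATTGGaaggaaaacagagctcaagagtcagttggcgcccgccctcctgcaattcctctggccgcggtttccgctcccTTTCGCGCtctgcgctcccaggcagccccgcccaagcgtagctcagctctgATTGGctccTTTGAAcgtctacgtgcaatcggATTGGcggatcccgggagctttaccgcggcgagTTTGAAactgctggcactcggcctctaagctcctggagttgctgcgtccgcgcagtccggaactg
Ccne1, chr7:38107441-38107740, minus strand: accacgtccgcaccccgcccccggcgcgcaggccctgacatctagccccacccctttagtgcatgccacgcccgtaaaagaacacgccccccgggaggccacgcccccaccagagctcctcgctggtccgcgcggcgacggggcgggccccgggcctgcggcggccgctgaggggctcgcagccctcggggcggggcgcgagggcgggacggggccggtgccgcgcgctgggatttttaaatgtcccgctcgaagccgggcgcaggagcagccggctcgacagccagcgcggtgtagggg

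Ccnb1 held 2 CCAAT matches in this window, Ccnb2 held 3 with 2 CHR matches, and Cdk1 held 3 with 2 CHR matches and 1 E2F match. Of the others, Cdc25a held 2 CCAAT matches and 1 E2F match, Cdk2 held 1 CCAAT match and 1 E2F match, Ccnd3 held 1 CCAAT match in 1 of its 2 listed promoters, and Ccne1 held none of the searched letters. No match overlapped another. Among 32851 mouse promoters of this length, 37.4% held CCAAT, 17.9% held CHR letters and 1.84% held E2F letters. These matches describe the sequence and are not shown to be used sites.

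Levels in the table are reads divided by a size factor for the library. A gene was called when it had an adjusted p under 0.05 (limma on log2(value + 1), Benjamini-Hochberg over all genes tested) and a fold of at least 2. Fold changes are on that log2 scale and understate the change of genes with low values. Levels per kilobase were divided by the union of all annotated exons of a gene, from 1531 bases for Ccnb2 to 8775 for Ccnd3. The order of genes per kilobase depends on this choice of length. Per kilobase of exon, Ccna2 had the highest mean level of the 10 genes in control 2-cell libraries, at 187 ± 56.2 (SD, n = 7), followed by Ccne1 at 126 ± 69.1 and Ccnb1 at 89.6 ± 38.1. Ccna2 lay above Ccne1 in 6 of these 7 libraries. In light 2-cell libraries Ccne1 came first at 370 ± 173 per kilobase (SD, n = 6), but it lay above Ccna2 in 3 of 6 libraries, so the order of this pair was within the spread. Without division by length, the light 2-cell means were 1244 for Ccna2, 1053 for Ccnb1 and 984 for Ccne1. Ccnb1 had the highest mean per kilobase at every later stage in both groups, from 358 ± 139 in control 4-cell libraries to 50.4 ± 22.2 in control blastocyst libraries. It lay above the next gene in 6 of 6 control and 8 of 8 light 4-cell libraries, but in only 1 of 3 control and 3 of 6 light blastocyst libraries. In the morula it lay above Ccna2 in 7 of 13 control and 5 of 6 light libraries, so the control order was within the spread. At the other end, Ccnd1 had the lowest mean per kilobase of the 10 in both groups at the morula stage (1.3 in control and 1.88 in light) and at the blastocyst stage (0.265 and 0.974).

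**Figure D1:**
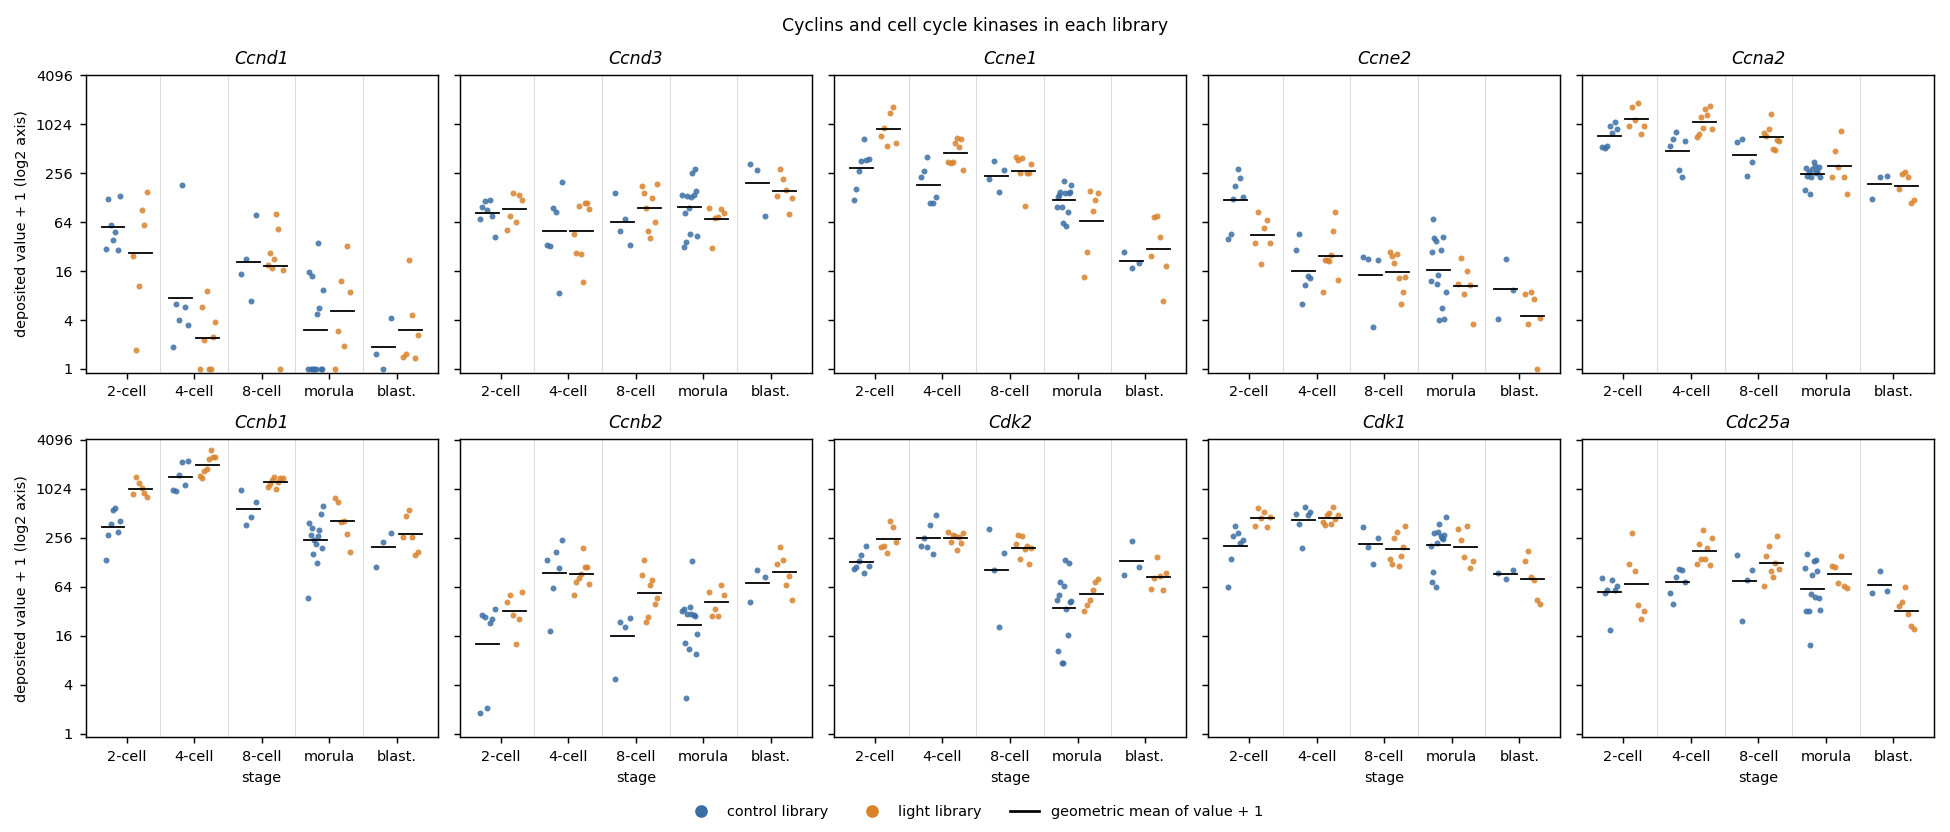
Deposited value + 1 of each gene (log2 axis) in each of the 67 libraries, by stage, with control libraries in blue, light libraries in orange and black bars at the geometric mean of value + 1. Ccnb1 separates the groups at the 2-cell stage (816 to 1433 in light, 136 to 594 in control) and at the 8-cell stage, while Ccnd1 has libraries at 0 from the 4-cell stage on.

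At the 2-cell stage, the stage at which embryos were lit, 4 of the 10 genes were called between light and control, with Ccnb1, Ccne1 and Cdk1 higher and Ccne2 lower in light. Over all genes tested at this stage, 10.5% were called. The median log2 fold change was 0.82 over the 10 genes and 0.00 over all genes. Ccnb1, the main mitotic B cyclin, ranged from 136 to 594 in control libraries (median, 373) and from 816 to 1433 in light libraries (median, 983). The lowest light library lay above the highest control library, a separation found for 4.15% of genes at this stage and for none of the other 9 genes here. The log2 fold change of Ccnb1 was 1.58 (SE 0.29, limma adjusted p = 0.000481). Its processed copy Ccnb1-ps, 99.2% identical over the aligned stretch, ran from 1.04 to 5.21 in control and from 3.34 to 19.4 in light 2-cell libraries. Further near copies are Gm12856 (98.1% identical, at most 15.3 in any library), Gm8416 (97.3%) and Gm7483 (96.6%), and the last 2 had no values. How the authors' counting split reads between Ccnb1 and these copies is uncertain.

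Ccne1, the E cyclin without overlapping genes, ranged from 120 to 681 in control 2-cell libraries (median, 366) and from 553 to 1675 in light ones (median, 833). A single control library lay inside the light range, and the log2 fold change was 1.62 (SE 0.33, limma adjusted p = 0.00177). Ccne2, its close relative, moved the other way, from 38.5 to 284 in control (median, 129) to 18.6 to 85.5 in light (median, 44.3). Its log2 fold change was -1.41 (SE 0.47, limma adjusted p = 0.0493), and the groups overlapped. The Ccne2 call was lost without any one of control libraries 10, 11, 12, 17 and 24 or light libraries 9, 12, 14 and 16 (log2 fold change of -1.47 to -1.17, adjusted p from 0.0655 to 0.13), and the lowest light library held 9 Ccne2 reads. Ccne2 shares 474 bases with Ints8 on the opposite strand. Ints8 was not called at this stage (log2 fold change of -0.36, SE 0.41, adjusted p = 0.63).

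Cdk1, the kinase partner of the B cyclins, ranged from 63.1 to 361 in control 2-cell libraries (median, 238) and from 345 to 602 in light ones (median, 450). Of the 6 light libraries, 4 lay above every control library. Its log2 fold change was 1.15 (SE 0.33, limma adjusted p = 0.0215). The call was lost without control library 8 or light library 10 (0.87 to 1.06, adjusted p from 0.049 to 0.0561) and with median ratio scaling (0.7, adjusted p = 0.109). It was lost with edgeR as well, where the log2 fold change of 0.993 lay just under the fold of 2 (adjusted p = 0.0175). Cdk2, the partner of the E cyclins, missed the threshold with a log2 fold change of 0.95 (SE 0.32, adjusted p = 0.05), and its values ran from 92.6 to 203 in control and from 165 to 409 in light. The log2 fold change of Ccna2 was 0.69 (SE 0.25, adjusted p = 0.0738). Ccnb2, Cdc25a and the D cyclins Ccnd1 and Ccnd3 had adjusted p-values from 0.254 to 0.845.

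**Figure D2:**
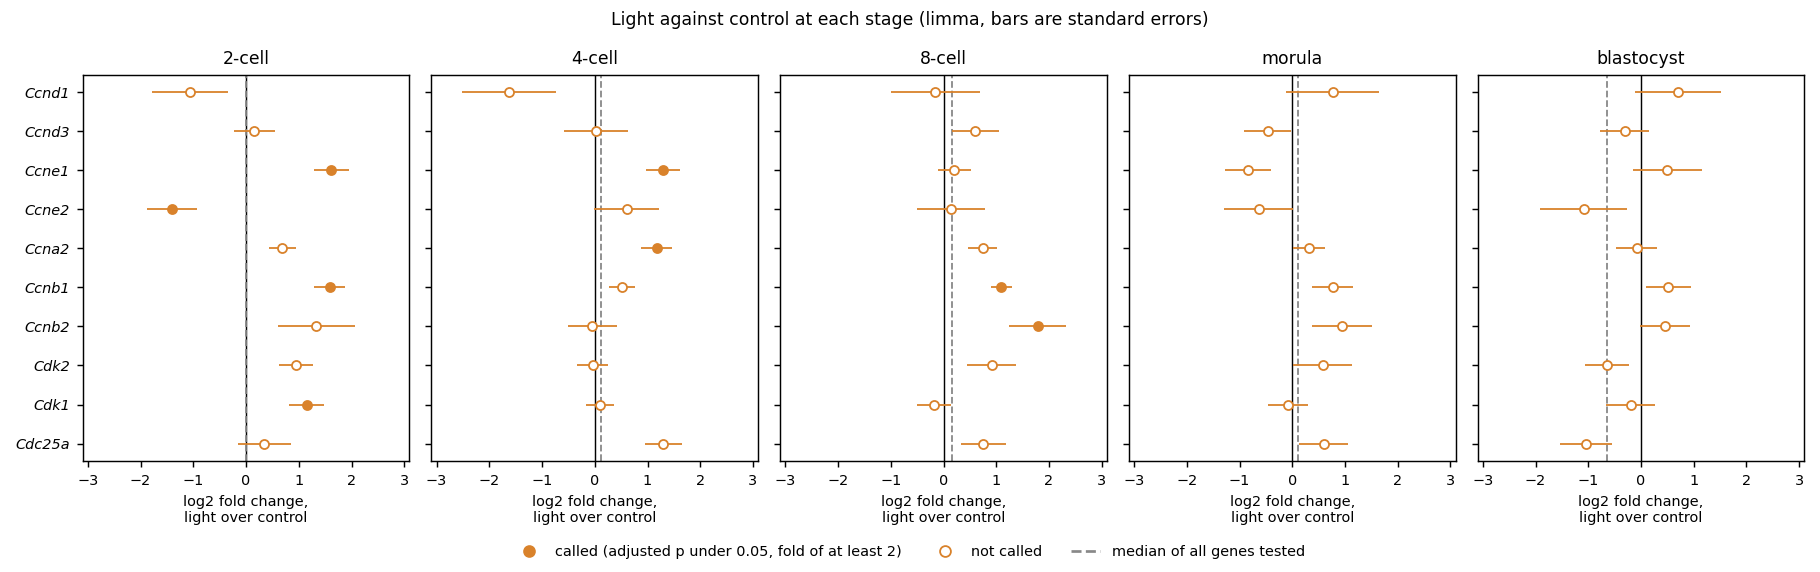
Log2 fold change of light over control for each of the 10 genes at each stage, with bars of 1 standard error, filled points for called genes and a dashed line at the median of all genes tested. Filled points number 4, 2, 2, 0 and 0 in order of development, and Ccne1 and Ccne2 lie on opposite sides of 0 at the 2-cell stage.

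Markers of the egg moved with light at this stage. The summed level of 10 oocyte markers ran from 1032 to 2553 in light 2-cell libraries and from 3403 to 8329 in control ones, with no overlap, and 3 of the 10 were called lower and none higher. None of the 10 was at 0 in all libraries of either group. The summed level of 10 markers of the 2-cell stage overlapped, with 147 to 1992 in light and 371 to 904 in control, and none of them was called. Of the cumulus cell markers, 6 were in the table and 2 could be tested, and Tnfaip6 was called higher in light (0 to 52.5, median 7.05, against 0 to 5.52, median 0, in control). The summed level of these 6 overlapped, with 1.24 to 63.1 in light and 7.29 to 22.2 in control, and Inha was at 0 in every 2-cell library. The part of these differences, or of the time of collection, in the cyclin values was not tested, and in single cells less of a transcript per cell cannot be told apart from more RNA of other kinds.

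Values of the next control stage are given beside those of the 2-cell stage. The medians of Ccnb1 were 373, 983 and 1328 in control 2-cell, light 2-cell and control 4-cell libraries, those of Cdk1 were 238, 450 and 493, and those of Ccne2 were 129, 44.3 and 12.6. For Ccne1 they were 366, 833 and 181 and for Ccna2 795, 1068 and 596, with the light 2-cell value above both control values. These columns of values share the control 2-cell libraries and were not tested against each other.

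The ratio of paralogous genes was taken within each library, as log2((value + 1)/(value + 1)), where the size factor cancels except for the added 1. It does not cancel for low values, such as those of Ccnd1 at 0. The log2 ratio of Ccne1 to Ccne2 was 1.31 ± 0.39 (SD, n = 7) in control 2-cell libraries, with a range of 0.72 to 1.86. In light 2-cell libraries it was 4.34 ± 0.52 (SD, n = 6), with a range of 3.43 to 4.82. No library of either group entered the range of the other. Single genes separated in this way for 4.15% of genes at this stage, and how often ratios of other gene pairs do so was not tested. The ratio rests on the same libraries as the calls of Ccne1 and Ccne2 above and is not separate evidence for them. The ratio was thus 2.48 in control and 20.2 in light, and the difference was 3.03 on the log2 scale (SE 0.26, two-sided exact permutation p = 0.000583 over 1716 regroupings, the smallest p that this design can give, adjusted p = 0.0117 over 20 ratio tests). Without any one of the 13 libraries, the difference stayed between 2.93 and 3.21, with adjusted p-values from 0.0253 to 0.0433, and it was 3.05 with a pseudocount of 0.1 and 3.01 on recovered reads. In control embryos the same ratio was 3.53 ± 1.24 (SD, n = 6) at the 4-cell stage and 4.08 ± 1 (SD, n = 4) at the 8-cell stage, and the control 4-cell libraries ranged from 2.59 to 5.99. At the 4-cell stage, light and control differed by 0.69 on the log2 scale (SE 0.57, exact permutation p = 0.224).

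Ccne1 over Ccne2 at the 2-cell stage was the only one of the 20 ratio tests with an adjusted p under 0.05. The other 19, which covered Ccnb1 over Ccnb2, Ccnd1 over Ccnd3, Cdk1 over Cdk2 and the later stages of Ccne1 over Ccne2, had unadjusted exact permutation p-values from 0.0788 to 0.919. Ccnb1 over Ccnb2 was 5 ± 0.86 in light and 4.75 ± 1.79 in control 2-cell libraries on the log2 scale and 1.54 ± 0.51 and 1.48 ± 0.34 in light and control blastocyst ones.

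**Figure D3:**
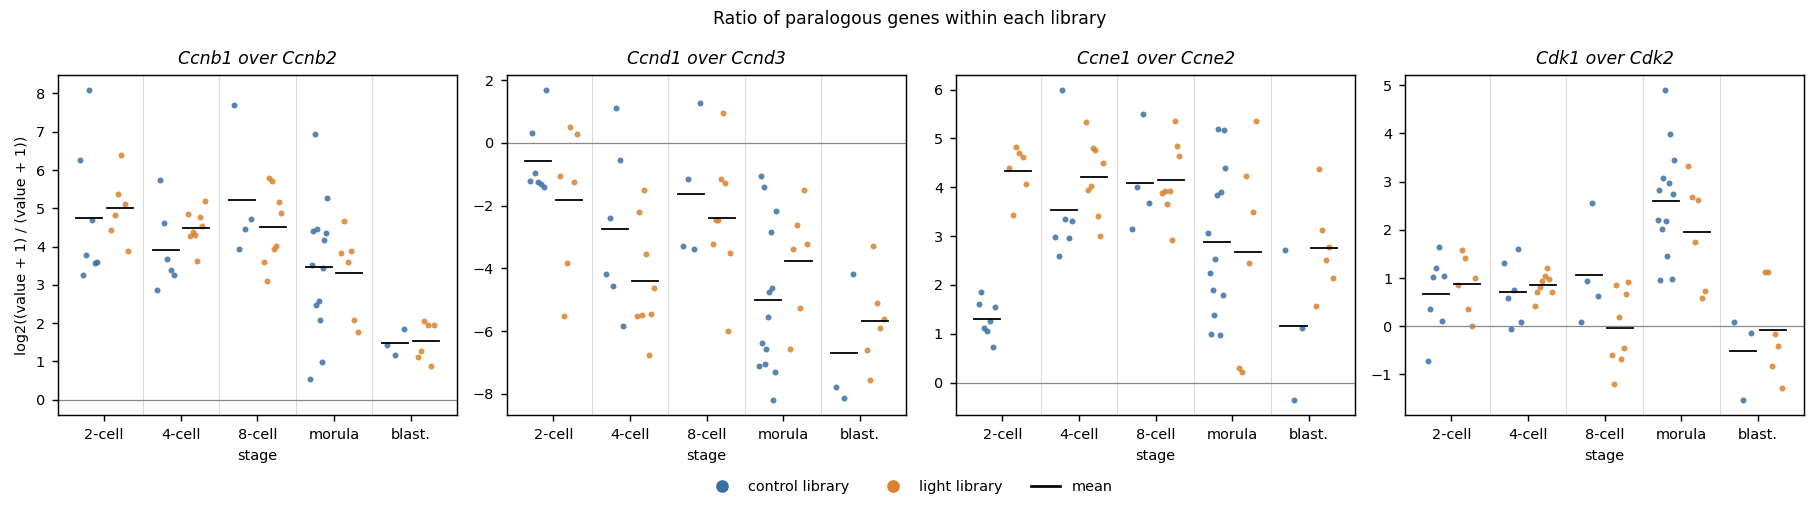
Log2 ratio of value + 1 between paralogous genes in each library, by stage, with control libraries in blue, light libraries in orange and black bars at the mean. Light 2-cell libraries have Ccne1 over Ccne2 ratios of 3.43 to 4.82 against 0.72 to 1.86 in control, and the other panels overlap at every stage.

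At the 4-cell stage, 2 of the 10 genes were called, Ccna2 and Ccne1, both higher in light, where 1.45% of all genes were called. The median log2 fold change was 0.31 over the 10 genes and 0.13 over all genes. Ccna2, the S phase and early mitotic cyclin, ranged from 231 to 829 in control libraries (median, 596) and from 711 to 1699 in light ones (median, 1095), with a log2 fold change of 1.18 (SE 0.29, limma adjusted p = 0.0402). Exosc9, which shares 431 bases with Ccna2 on the opposite strand, was not called (-0.2, adjusted p = 0.835). Ccne1 ranged from 108 to 401 in control (median, 181) and from 277 to 686 in light (median, 444), with a log2 fold change of 1.29 (SE 0.33, limma adjusted p = 0.042). Both ranges overlapped between the groups.

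These calls lay close to the threshold. Ccna2 was lost without any one of control libraries 1, 4 and 5 or light libraries 6, 7, 9, 11, 13 and 14, with log2 fold changes of 0.96 to 1.22 and adjusted p-values from 0.0509 to 0.105. Ccne1 was lost without control library 4, 5 or 6 or without any one of the 8 light libraries, with log2 fold changes of 1.14 to 1.39 and adjusted p-values from 0.0516 to 0.103. With edgeR's quasi-likelihood test on the recovered reads, both fell short, Ccne1 with a log2 fold change of 1.03 and an adjusted p of 0.112. With DESeq2, Ccne1 fell short as well (1.07, adjusted p = 0.0661), while Ccna2 was called (1.01, adjusted p = 0.0379).

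Cdc25a was the one gene of the 10 whose groups did not overlap at the 4-cell stage, which was so for 0.56% of all genes. It ranged from 38.7 to 105 in control libraries (median, 77.7) and from 119 to 318 in light ones (median, 167). Its log2 fold change of 1.3 (SE 0.35) missed the threshold with a limma adjusted p of 0.0511, and it passed with 5 of the alternative settings, among them edgeR (1.35, adjusted p = 0.0452) and DESeq2 (1.4, adjusted p = 0.0028). Control 4-cell libraries 2, 3, 4 and 6 correlated better with the light libraries than with their own group. Without control library 3 alone, the log2 fold change of Cdc25a was 1.35 with a limma adjusted p of 0.0255. Cdc25a stayed uncalled with any other single library of this stage left out. The log2 fold changes of Ccnb1, Cdk1 and Cdk2 at this stage were 0.52, 0.1 and -0.04, and none was called.

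At the 8-cell stage, Ccnb1 and Ccnb2 were called, both higher in light, where 9.21% of all genes were called. The median log2 fold change was 0.67 over the 10 genes and 0.16 over all genes. The 4 control libraries held Ccnb1 at 367, 455, 699 and 984, and the 8 light libraries ran from 1025 to 1439 (median, 1268). Every light library lay above every control library, as for 5.61% of genes at this stage and no other of the 10 genes. The log2 fold change of Ccnb1 was 1.1 (SE 0.21, limma adjusted p = 0.00151). Its adjusted p stayed under 0.05 with median ratio scaling (0.00985), edgeR (0.0174), DESeq2 (0.00794) and scaling to the reads outside the ribosomal pair (0.00333), but its log2 fold change then was 0.83 to 0.99, under the fold of 2. The same held without control library 2 or 3, with log2 fold changes of 0.88 to 0.98.

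Ccnb2, the second B cyclin, stood at 3.7, 19.7, 22.9 and 25.4 in the 4 control 8-cell libraries and from 22.8 to 137 in light ones (median, 56). The lowest light library lay inside the control range. Its log2 fold change was 1.78 (SE 0.54, limma adjusted p = 0.0359), and the call was lost without control library 1 or 3 or light library 5, 6, 9 or 10 (1.2 to 1.92, adjusted p from 0.0523 to 0.145). Control library 1, at 3.7, held 4 Ccnb2 reads. Without control library 3, which stood at 19.7, none of the 10 genes was called at this stage. Cdk1, the kinase partner of both, ran from 121 to 346 in control and from 115 to 356 in light, a log2 fold change of -0.18 (SE 0.33). Other stage markers differed here too. The summed level of 10 markers of the 2-cell stage ran from 85.1 to 412 in control and from 1.9 to 156 in light, with 1 of the 6 tested called lower. Of the markers tested, 2 of 5 for trophectoderm and 2 of 8 for inner cell mass were called higher. Their part in the B cyclin values was not tested.

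None of the 10 genes was called at the morula stage, where 1.18% of all genes were called. None had an unadjusted limma p under 0.05, and none had groups that did not overlap, which was so for 0.552% of all genes. The largest log2 fold change was 0.94 for Ccnb2 (SE 0.57, adjusted p = 0.446), followed by -0.84 for Ccne1 (SE 0.43, adjusted p = 0.352). The count was 0 with edgeR and DESeq2 as well.

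None was called at the blastocyst stage either, where 5.34% of all genes were called and 12.5% had groups that did not overlap, against 0 of the 10. The median log2 fold change over all genes was -0.64 with the deposited scaling and -0.11 to -0.03 with the other scalings, so values at this stage are also given relative to it. Ccnb1 stood at 112, 230 and 296 in the 3 control libraries and from 157 to 559 in light ones (median, 263). Its log2 fold change was 0.51 (SE 0.43, limma adjusted p = 0.481), or 1.15 above the median of all genes. It was called with scaling to the reads outside the ribosomal pair (1.29, adjusted p = 0.0347) and with DESeq2 (1.18, adjusted p = 0.0142), and not with edgeR (1.19, adjusted p = 0.0986). Cdc25a had an unadjusted p under 0.05, with a log2 fold change of -1.04 (SE 0.49, adjusted p = 0.204), or -0.4 relative to the median of all genes. Inner cell mass markers were called lower in light for 6 of 9, with a summed level of 196 to 388 against 336 to 2057 in control, so cells of the blastocyst groups differed in these markers.

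The effect of light was compared between neighbouring stages with an interaction term in limma. None of the 10 genes was called in any of the 4 comparisons, where 3.07%, 3.8%, 2.62% and 1.57% of all genes were called from the earliest to the latest. Unadjusted p-values under 0.05 numbered 4, 2, 0 and 1, and edgeR called none. From the 2-cell to the 4-cell stage, the light effect on Ccnb1 changed by -1.06 on the log2 scale (SE 0.38, adjusted p = 0.116) and that on Ccne2 by 2.01 (SE 0.78, adjusted p = 0.142). The latter was called with median ratio scaling (2.5, adjusted p = 0.0324). A call at one stage and none at the next is therefore not shown to be a difference between stages for these genes.

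Across development in control embryos, 6 of the 10 genes were called from the 2-cell to the 4-cell stage, where 46.1% of all genes were called. The median of all genes fell by 0.72 on the log2 scale. The mitotic genes Ccnb1 (2.04, SE 0.33) and Ccnb2 (2.87, SE 0.79) rose, as did Cdk1 (1.07, SE 0.4) and Cdk2 (1.02, SE 0.36), with limma adjusted p-values of 3.81e-05, 0.00509, 0.0318 and 0.0242. The calls of both kinases were lost with median ratio scaling. Ccne2 fell (-2.89, SE 0.58, adjusted p = 0.000355), from a median of 129 to 12.6. Ccnd1 fell by the same amount (-2.89, SE 0.83, adjusted p = 0.00704), from a median of 47 to 3.91, although control 4-cell library 4 held 184, and edgeR did not call it (-0.98).

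In light embryos, the step from the 2-cell to the 4-cell stage called 3 of the 10 genes, where 36.5% of all genes were called. Ccnb2 (1.49, SE 0.4, limma adjusted p = 0.00351) and Cdc25a (1.36, SE 0.42, adjusted p = 0.0115) rose and Ccnd1 fell (-3.46, SE 0.84, adjusted p = 0.00165), with 3 of the 8 light 4-cell libraries at 0 Ccnd1 reads. A library at 0 does not show absence, since an expected count of up to 3 reads can still give 0. The log2 fold change of Ccnb1 was 0.98 (SE 0.2, adjusted p = 0.000239), just short of the fold of 2, and edgeR called it (1.43). Cdk1 and Cdk2 changed by 0.02 and 0.03. The light and control steps were not shown to differ for any of these genes by the interaction above.

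**Figure D4:**
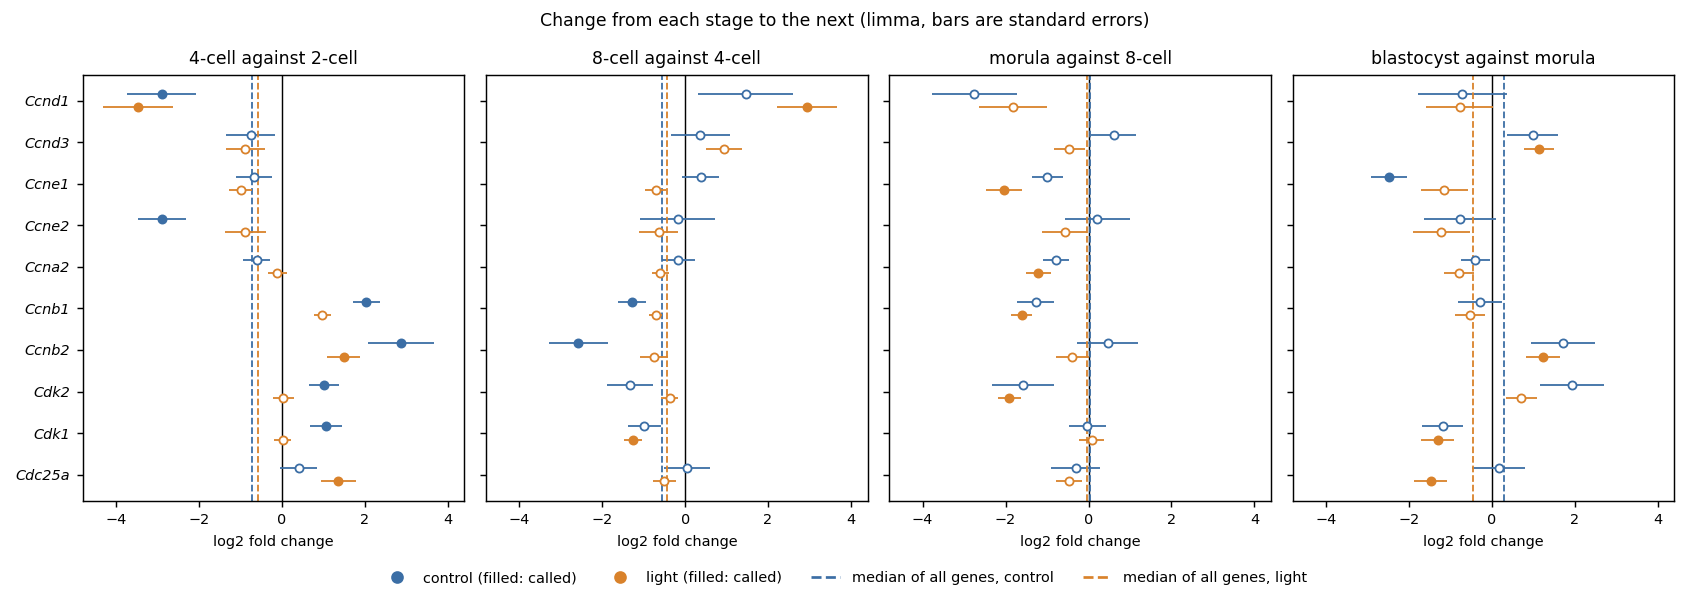
Log2 fold change from each stage to the next for the 10 genes in control (blue) and light (orange) libraries, with bars of 1 standard error, filled points for called genes and dashed lines at the median of all genes tested. From the 2-cell to the 4-cell stage 6 control and 3 light points are filled, and both B cyclins lie to the right of the median in each group.

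From the 4-cell to the 8-cell stage in control embryos, Ccnb1 fell by 1.28 on the log2 scale (SE 0.34, limma adjusted p = 0.0247) and Ccnb2 fell by 2.57 (SE 0.71, adjusted p = 0.0308), where 6.31% of all genes were called and the median of all genes fell by 0.56. Neither was called with median ratio scaling, without a filter or with edgeR. The count of 2 became 0 without control 8-cell library 3, 1 without library 1 or 2, and 3 without control 4-cell library 3, when Cdk1 was called too (-1.21, adjusted p = 0.0359). In light embryos, where 10.6% of all genes were called, Ccnd1 rose by 2.94 (SE 0.73, adjusted p = 0.00721) and Cdk1 fell by 1.26 (SE 0.22, adjusted p = 0.000387). The Cdk1 call was lost with edgeR and with median ratio scaling, where its change reached -0.6.

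From the 8-cell stage to the morula in control embryos, none of the 10 genes was called, where 14.3% of all genes were. The 5 with an unadjusted limma p under 0.05 all had lower means in the morula, and edgeR called Ccne1 (-1.06, adjusted p = 0.018) and Ccnb1 (-1.27, adjusted p = 0.0199). Without control 8-cell library 3, Ccna2 was called (-1.08, adjusted p = 0.0342). In light embryos 4 were called, all lower in the morula, where 11.8% of all genes were called. These were Ccne1 (-2.05, SE 0.44), Cdk2 (-1.91, SE 0.28), Ccnb1 (-1.61, SE 0.25) and Ccna2 (-1.21, SE 0.3), with adjusted p-values of 0.00213, 4.42e-05, 7.87e-05 and 0.00664. Cdk2 in light embryos went from 123 to 279 at the 8-cell stage (median, 197) to 31.6 to 79.4 in the morula (median, 50.6).

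From the morula to the blastocyst in control embryos, Ccne1 was the one gene called, where 11.9% of all genes were called. It fell by 2.49 (SE 0.44, limma adjusted p = 0.000373), from 57 to 202 in the morula (median, 139) to 16.7, 19.3 and 26.3 in the 3 blastocyst libraries. The call held with each of these 3 libraries left out. In light embryos 4 genes were called, where 20.7% of all genes were called and the median of all genes fell by 0.45. Ccnd3, the D cyclin with the higher level per kilobase at this stage, rose by 1.14 (SE 0.37, adjusted p = 0.0241) and Ccnb2 by 1.23 (SE 0.4, adjusted p = 0.0255). Cdk1 fell by 1.31 (SE 0.39, adjusted p = 0.0138) and Cdc25a by 1.48 (SE 0.4, adjusted p = 0.0073), and both of these calls were lost with edgeR and with median ratio scaling. The change of Ccne1 in light embryos was -1.15 (SE 0.56, adjusted p = 0.141).

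Other cell cycle genes were followed in 6 lists with 56 genes in all. At the 2-cell stage 54 were tested, and 5 were called higher and 4 lower in light, or 16.7% beside 10.5% of all genes. Of 9 mitotic entry kinases and phosphatases tested, 1 was called higher and 1 lower, with a median log2 fold change of 0.03 beside 0.00 over all genes. Plk1, a mitotic kinase, was higher (1.34, limma adjusted p = 0.00731). Wee2, an egg kinase that inhibits Cdk1, was lower (-1.23, adjusted p = 0.00737), from 1153 to 1732 in control to 246 to 1472 in light. Of 13 genes of cyclin and Cdc25 destruction, 2 were called higher and 1 lower, with a median log2 fold change of -0.07. Cdc20, the activator of the anaphase-promoting complex, ranged from 76.6 to 296 in control and from 379 to 827 in light without overlap (log2 fold change of 1.52, SE 0.31, adjusted p = 0.0017). Fbxw7, which targets cyclin E, had a log2 fold change of -2.75 (SE 0.81, adjusted p = 0.0258), with a median of 35.6 in control and 1.67 in light. Btrc was higher in light without overlap (1.77, adjusted p = 0.0291). Cdk4, the partner of the D cyclins, was higher in light (2.13, SE 0.49, adjusted p = 0.00429), from a median of 24.8 to 118. Among the other cyclins, Ccng2 was higher (1.61, adjusted p = 0.0487) and Ccni lower without overlap (-2.08, adjusted p = 0.00823), and E2f2 was lower (-1.64, adjusted p = 0.00963). None of the 7 Cdk inhibitors was called.

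At the 4-cell stage 1 of 53 was called (1.89%, beside 1.45% of all genes), Fbxo5, an inhibitor of the anaphase-promoting complex, which was higher in light (2.6, SE 0.64, limma adjusted p = 0.0375). At the 8-cell stage 4 of 51 were called (7.84%, beside 9.21% of all genes). Ccng1 (3.82) and E2f6 (3.33) were higher in light, E2f2 (-2.61) was lower, all 3 without overlap, and Cdc25c, a mitotic phosphatase, was lower (-1.58), with adjusted p-values from 0.00431 to 0.0465. The 4 control 8-cell libraries held Ccng1 at or below 2.09 and E2f6 at or below 2.78. At the morula stage none of 51 was called (1.18% of all genes), and at the blastocyst stage 1 of 51 was called (1.96%, beside 5.34% of all genes). This was Wee1, the kinase that inhibits Cdk1, at 60.2 to 87.3 in control and 11.6 to 29.7 in light (-1.97, SE 0.51, adjusted p = 0.0267), with the median of all genes at -0.64.

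Over the 67 libraries, the gene most like Ccnb1 among 8211 genes was Cdc20 (Pearson's r of 0.876 on log2 values), followed by Kpna2 (0.869). Ccna2 was most like Dnajb9 (0.858), Ccne1 most like Selenos (0.834) and Cdk1 most like Rsl1d1 (0.803). Ccne2 was most like Ints8 (0.768), the gene that it overlaps. Cdk2 was most like Ccnc (0.787). The best matches of the other 4 genes were weaker, with 0.644 for Ccnb2 and Eif1a, 0.635 for Ccnd1 and Hey1, 0.633 for Cdc25a and Dtl and 0.521 for Ccnd3 and Mras. These values describe libraries that share stage, light condition and depth. Within groups, the correlation between the 45 pairs of the 10 genes had a median of 0.113 (range, -0.254 to 0.448), beside 0.0616 for all pairs of genes with a mean of at least 10.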

How the data were processed

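Single-cell cDNA from C57BL/6 embryos was made with SMART-seq2. The submitters' processing notes name HISAT2, HTSeq 0.9.1 and the build mm9. The authors deposited 1 table of signal values: reads per gene divided by a size factor for each library, with no division by length. At least 99.96% of values per library were whole multiples of the value of 1 read (tolerance, 0.01 reads), from which reads were recovered. The paper's methods describe RPKM, which this table does not hold.

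At each stage, light libraries were tested against control ones, and each stage against the one before, by limma 3.58.1 (R 4.3.3) on log2(value + 1). Genes entered if 3 or more of the libraries in the comparison exceeded a value of 1. Benjamini-Hochberg adjustment covered all genes tested. Paralog ratios were compared by two-sided exact permutation tests (all regroupings enumerated, Python 3.11.15 and numpy 2.4.6). Alternatives were a pseudocount of 0.1, no filter, a mean above 5, median ratio scaling, scaling to the reads outside the ribosomal pair, edgeR 4.0.16 (TMM, quasi-likelihood), DESeq2 1.42.0, 1 fit over all libraries, a replicate block and leaving out libraries. The fitting code was tested on simulated data. Exon lengths came from GENCODE M21 (GRCm38) and promoters from RefSeq (GRCm38.p6). Since the files' build differs, no other coordinates are given.

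The 10 genes and the lists of other cell cycle genes and markers were chosen with earlier results of these data known. Named besides the 10 genes were, per stage and list, up to 3 called genes with the smallest p, and the genes most correlated with each member. No 2 libraries of a group agreed within sampling noise (smallest chi-square per degree of freedom, 7.39). Protein sequences were not used here.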

Additional observations from a re-analysis of the deposited data

Results flagged for a closer look

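Of 80 groups of 4 to 10 libraries (8 groups for each of the 10 genes), 8 held a library whose distance from its nearest neighbour exceeded Dixon's limit. Chance alone gives about 1 in 20 for normally distributed values. The limit was applied here to deposited values without a log transform, so that rate need not hold and the count of 8 was not tested against chance. Of these 8, 3 were for Ccnd1, the gene with the most libraries at or near 0: control 4-cell library 4 was the highest of its group at 184, light morula library 9 at 31.5 and light blastocyst library 23 at 21. Ccnd3 was lowest in light morula library 3, at 29.9. Ccne2 was lowest in control 8-cell library 3, at 2.32. Ccna2 was highest in light 8-cell library 8, at 1363, and Ccnb2 was highest in light 4-cell library 9, at 192. Cdc25a was highest in light 2-cell library 10, at 292.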

How the results depend on the processing

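Of 1806 alternative values for single genes, 1695 kept their side of the threshold, 85 lost a call and 26 gained one. None that was called in either setting reversed its direction. Values called in neither setting count as kept even where the direction changed. An example is Cdc25a at the 2-cell stage, with a log2 fold change of 0.35 and, with median ratio scaling, -0.1. The number of the 10 genes called between light and control was 4 at the 2-cell stage, 3 to 5 under the other alternatives (5 with scaling to the reads outside the ribosomal pair) and 0 with the replicate block. At the 4-cell stage it was 2, with 3 under median ratio scaling, a mean above 5 or scaling to the reads outside the ribosomal pair. DESeq2 gave 2 (Ccna2 and Cdc25a) and edgeR gave 1 (Cdc25a). The count was 1 under a pseudocount of 0.1 or 1 fit over all libraries and 0 without a filter or with the replicate block. At the 8-cell stage it was 2, with 1 without a filter, with scaling to the reads outside the ribosomal pair or with DESeq2, and 0 with median ratio scaling, edgeR or 1 fit over all libraries. At the blastocyst stage it was 0, with 1 under scaling to the reads outside the ribosomal pair or DESeq2. Among stage steps, the control step to the 8-cell stage had 2, and 0 without a filter, with median ratio scaling or with edgeR. The control step to the morula had 0, and 2 with median ratio scaling or edgeR, that to the blastocyst had 1, and 2 with median ratio scaling, and the light step to the 8-cell stage had 2, and 1 with edgeR. The change of the light effect from the 2-cell to the 4-cell stage had 0, and 1 with median ratio scaling. The causes were not tested.

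Leaving out 1 library at a time gave 3 to 4 called genes between light and control at the 2-cell stage, 0 to 3 at the 4-cell stage, 0 to 2 at the 8-cell stage and 0 at both later stages. For control steps, fewer libraries were left out in turn: 1 for the step to the 4-cell stage (6 called), 5 for that to the 8-cell stage (0 to 3), 4 for that to the morula (0 to 1) and 3 for that to the blastocyst (1). Of the ratio tests, 1 of 20 passed without any one of the 67 libraries. At the 4-cell stage, the count was 0 without control library 4 or 5 or light library 6, 7, 9, 11, 13 or 14, and 1 without control library 1 or 6 or light library 1 or 5. At the 8-cell stage, it was 0 without control library 3 and 1 without control library 2 or light library 5, 6, 9 or 10.

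Over 10 pairs of same-numbered light and control libraries, correlations of their deviations ran from -0.0683 to 0.0693. Whether libraries shared a litter or a run was not tested. The replicate block fits (2-cell, 4-cell and morula stages) called 0 genes in each. Since few libraries share a number with the other group, these fits leave little from which to measure the spread. No conclusion is drawn from them. Depth limits Ccnd1, Ccne2 and Ccnb2 most, with 0 to 10 reads in some libraries. Only 3 control blastocyst and 4 control 8-cell libraries stand behind those comparisons.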
